A study of Mus musculus with 4 samples.

Results

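Intracisternal A-particle (IAP) elements made up 25 of the 1072 transposable element (TE) subfamilies counted by RNA-seq in E14 mouse embryonic stem cells (ESCs). They were taken as every entry of the TE table whose name begins with IAP, without regard to its counts. Of these, 9 were internal regions, with names ending in -int, and 15 were long terminal repeats (LTRs). The remaining entry, IAPLTR4_I, has a name that ends in _I and was kept apart from both classes. The study held 4 libraries, 2 from biological samples of wild-type (WT) E14 ESCs and 2 from Pim3-/- E14 ESCs. The Pim3-/- libraries came from 2 ESC clones edited by CRISPR/Cas9 with guide RNAs against separate exons of Pim3, which encodes a serine/threonine kinase, so each clone was sequenced in 1 library. All cells, with the strain given as 12910la, were grown on gelatin in serum with LIF. The comparison asked how the transcriptome, TEs included, changed when Pim3 was lost.

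IAP elements are endogenous retroviruses of the mouse genome, some of which are still able to move and to cause insertional mutations. A full-length copy has an internal region with gag, pro and pol genes, flanked by an LTR at either end that holds the promoter and the polyadenylation signal, while solo LTRs are left behind when the flanking LTRs recombine. In ESCs, IAP copies are repressed by H3K9me3, which SETDB1 places after KRAB zinc finger proteins and TRIM28 have brought it to the DNA, and by DNA methylation. IAPE elements, to which the names IAPEz and IAPEY belong, are IAP relatives that carry an envelope gene in their complete form. Each TE subfamily value is the number of reads over all of its genomic copies, so it does not say which copy was transcribed, and a read through an IAP copy inside another transcript counts in the same way.

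The libraries held 546500 to 821065 TE counts and 22029427 to 25668307 gene counts. TE counts per 1000000 gene counts were 23601 and 26515 in WT against 35865 and 36699 in Pim3-/- ESCs, so the choice between scaling within the TE table and scaling by the gene table moves every IAP value that is compared between libraries. Pim3 itself had 4392 and 4953 counts in WT against 4970 and 4804 counts in Pim3-/- libraries. Its log2 fold change was -0.27, with an adjusted p of 0.251 in edgeR's quasi-likelihood test, and a count per gene does not show whether small edits in its exons were present. All 10 ESC markers listed were detected in every library. Their summed level was 10894 and 9840.3 CPM of the gene table, that is, scaled counts per 1000000, in WT and 7014 and 6669.8 CPM in Pim3-/- ESCs. The scaling used TMM factors of 0.83 and 0.88 in WT against 1.17 and 1.17 in Pim3-/- ESCs, and raw gene totals give a smaller difference. Of these markers, 4 were lower (Pou5f1, Nanog, Dppa5a and Utf1) and 1 higher (Klf4), where 33.8% of all tested genes passed. By qPCR, the paper reported Oct4 (Pou5f1) as not disrupted and Nanog as upregulated in Pim3-/- ESCs. The 5 markers of 2-cell-like cells were all higher (summed level 7.10 and 5.92 against 68.9 and 21.0 CPM), as were all 5 primitive endoderm markers tested of 6 (2.77 and 4.37 against 26.7 and 17.0 CPM, with Foxa2 at 0 in both WT libraries). Of the other marker lists, 2 of 4 trophoblast genes, 1 of 4 fibroblast genes and 0 of 2 mesoderm genes that could be tested were higher, and 0 were lower. Their part in the IAP values was not tested, and in bulk RNA a change in the share of a cell type and a change in RNA per cell cannot be told apart.

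Each of the 25 IAP subfamilies had reads in at least 3 of the 4 libraries, and counts were concentrated in IAPEz-int, the internal region of the IAPEz group. IAPEz-int took 38.4% and 40.7% of all IAP counts in WT against 37.5% and 34.7% in Pim3-/- ESCs. The subfamilies with the next most counts were the LTR IAPLTR1_Mm, the internal regions IAPEY3-int and IAP-d-int, and the LTR IAPLTR2_Mm. These are orders of counts, not of levels per copy or per length. Of the 25 subfamilies, 21 had enough counts to be tested, 7 internal and 14 LTR. The other 4 had too few counts for the filter. IAPA_MM-int had 3, 9, 8 and 13 counts (WT replicates 1 and 2, then Pim3-/- replicates 1 and 2). IAPEY5_I-int had 0, 8, 10 and 4 counts, where the 0 allows up to 3 counts, or 5.89 CPM of the TE table. IAPEY5_LTR had 4, 3, 12 and 8 counts and IAPLTR4_I had 2, 5, 6 and 5 counts, and without the filter none of the 4 passed (adjusted p from 0.435 for IAPEY5_LTR to 0.963 for IAPLTR4_I, quasi-likelihood test of edgeR).

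**Figure D1:**
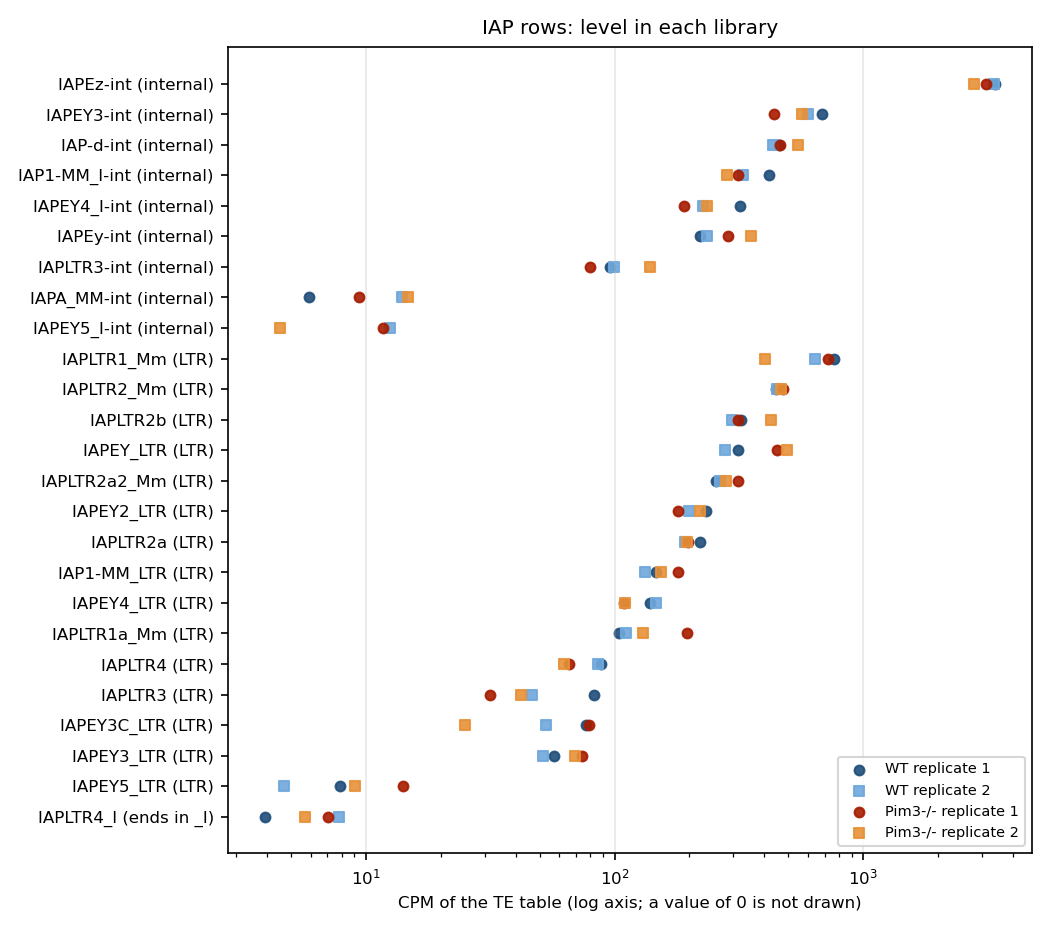
Level of each of the 25 IAP subfamilies (vertical axis) in each of the 4 libraries, as CPM of the TE table after TMM scaling (horizontal log axis; a value of 0 is not drawn). IAPEz-int stood between 2790.4 and 3398 CPM, and the points of WT (blue) and Pim3-/- (red and orange) libraries lie close together for most subfamilies, with IAPEY_LTR among the exceptions.

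With counts scaled within the TE table, 1 of the 21 tested IAP subfamilies was higher in Pim3-/- ESCs and 0 were lower by an adjusted p threshold of 0.05 (quasi-likelihood test of edgeR, Benjamini-Hochberg adjustment over all 828 TEs tested). Across all tested TEs, 8.7% passed, 3.38% higher and 5.31% lower. The IAP shares were 4.76% in either direction, 4.76% higher and 0% lower, and the higher share rests on 1 subfamily. At an unadjusted p under 0.05, 3 IAP subfamilies were higher and 1 was lower, beside 104 higher and 111 lower of all 828 TEs. The Wald test of DESeq2 also called 1 higher and 0 lower (4% and 0%), beside 1.27% higher and 3.41% lower of all TEs. No IAP subfamily passed with a 2-fold change, which 4.71% of all TEs did. The fold changes split evenly in direction, 10 above and 11 below 0 (47.6% above, against 50.2% of all tested TEs), with a median log2 fold change of -0.06 beside 0.01 for all tested TEs. CPM of WT and Pim3-/- libraries did not overlap for 8 subfamilies that were higher and 6 that were lower, 66.7% of those tested, and the same held for 58.3% of all tested TEs (29.2% higher and 29.1% lower). Each count of calls depended on the libraries used, with 0 higher and 0 lower without either WT replicate (where 0 of all 870 TEs tested passed by edgeR and, at an unadjusted p under 0.05, 1 IAP subfamily was higher in either case and 0 and 2 were lower), 2 higher and 3 lower without Pim3-/- replicate 1, beside 8.02% and 11.1% of all TEs, and 2 higher and 1 lower without Pim3-/- replicate 2, beside 6.45% and 9.56% of all TEs.

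Scaling by the gene table moved all TEs upward, by 0.26 in the median log2 fold change. The median of the IAP subfamilies then became 0.21, beside 0.27 for all TEs, with 13 IAP subfamilies above and 8 below 0, against 76.2% of all TEs above 0. On that scale 5 IAP subfamilies were called higher (IAPEY_LTR, IAPEy-int, IAPLTR1a_Mm, IAPLTR2b and IAP-d-int) and 0 lower, beside 21% of all TEs called higher, 4.11% lower and 25.1% in either direction. That fit shared 1 estimate of the spread among all TEs. In a second fit only the weight of that shared estimate was changed. This prior weight (prior degrees of freedom) was set to 6.55, as in the fit within the TE table. Then 1 IAP subfamily was called higher beside 5.8% of all TEs higher and 7.97% in either direction. With the totals of the gene table in place of any TMM factors, a setting chosen after seeing the data, 14 of the 21 IAP subfamilies (66.7%) were called higher beside 65.5% of all TEs, and the IAP median was 0.66 beside 0.72 for all TEs. The 7 not called in that setting were IAP1-MM_I-int, IAPEY3-int, IAPEY4_I-int, IAPEY3C_LTR, IAPEY4_LTR, IAPLTR3 and IAPLTR4.

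**Figure D2:**
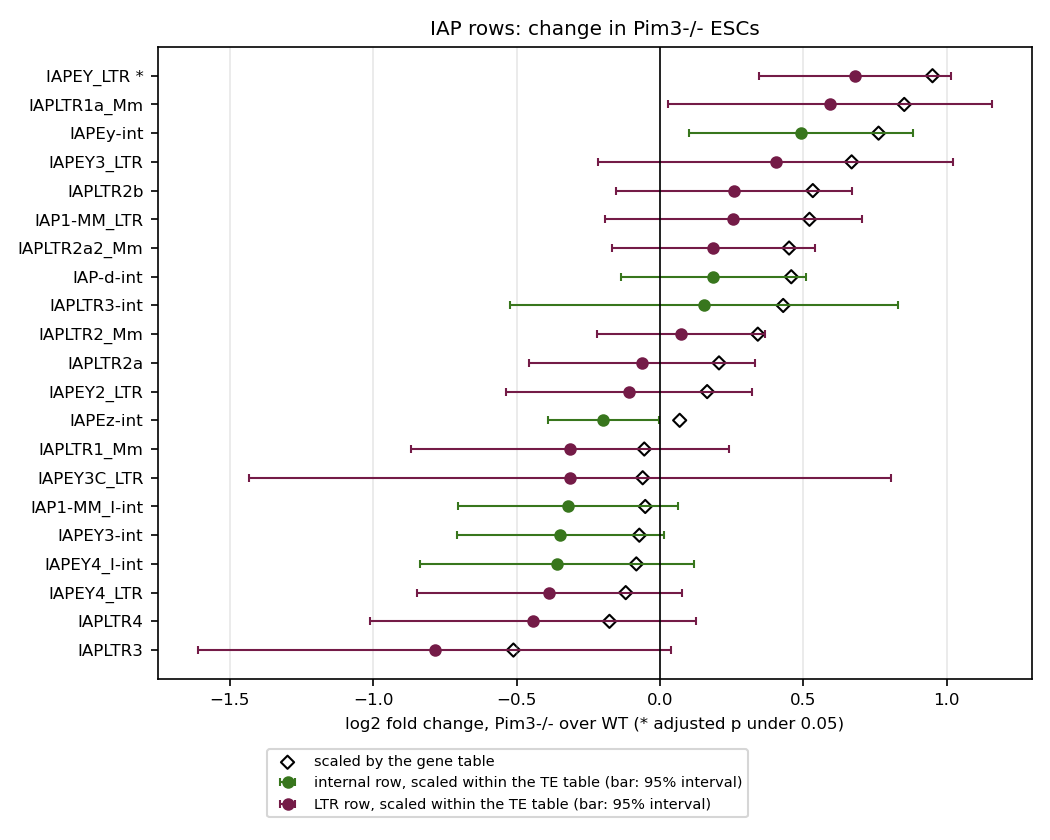
Log2 fold change of each of the 21 tested IAP subfamilies, Pim3-/- over WT (horizontal axis), with 95% intervals for scaling within the TE table (filled points, green for internal and purple for LTR) and the value with scaling by the gene table (open diamonds). IAPEY_LTR, marked by a star, was the only one with an adjusted p under 0.05, at 0.68, and the diamonds lie to the right of the filled points throughout.

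IAPEY_LTR, the LTR of the IAPEY group, was the IAP subfamily that rose. It stood at 314 and 277 CPM in WT against 451 and 494 CPM in Pim3-/- ESCs, from 160, 178, 385 and 436 counts. Both Pim3-/- libraries lay above both WT libraries, and the means were 296 ± 25.9 and 473 ± 30.4 CPM (SD, n = 2 libraries each). The log2 fold change was 0.68 (95% interval 0.35 to 1.01, SE 0.15), a 1.60-fold difference, with an adjusted p of 0.0279 in edgeR's quasi-likelihood test. Its share of all IAP counts was 3.55% and 3.35% in WT against 5.43% and 6.16% in Pim3-/- ESCs. The call held under every scaling, filter and tool tried, with adjusted p from 5.6e-10 to 0.0484, but was lost when a WT library was left out (adjusted p = 0.391 without WT replicate 1 and 0.307 without WT replicate 2, with log2 fold changes of 0.78 and 0.58).

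The internal region with the matching name had a fold change of the same sign but did not pass the test. IAPEy-int stood at 219.9 and 235 CPM in WT against 286 and 355 CPM in Pim3-/- ESCs, so that the groups did not overlap. Its log2 fold change was 0.49 (95% interval 0.10 to 0.88) with an adjusted p of 0.117. It passed with the total counts of the TE table in place of TMM factors (adjusted p = 0.0499). With the scaling of the gene table it passed as well (adjusted p = 0.0018, or 0.0564 with the prior weight of the TE table). The log2 fold change of IAPEy-int was 0.63 without Pim3-/- replicate 1 and 0.33 without Pim3-/- replicate 2. Other entries with IAPEY names had fold changes of either sign. IAPEY2_LTR had 119 and 128 counts in WT against 153 and 195 in Pim3-/- ESCs, where CPM overlapped (log2 fold change -0.11, adjusted p = 0.752).

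IAPEz-int, with the most counts, had lower CPM in both Pim3-/- libraries on the TE scale but did not pass the test. Its counts were 1731 and 2160 in WT against 2654 and 2461 in Pim3-/- ESCs, and its CPM were 3398 and 3366 against 3111 and 2790.4. The WT libraries were almost equal and both lay above the Pim3-/- libraries. The log2 fold change was -0.20 (95% interval -0.39 to -0.003) with an adjusted p of 0.186, and with the scaling of the gene table it turned to 0.07. The log2 fold change was -0.29 without Pim3-/- replicate 1 and -0.12 without Pim3-/- replicate 2. With the totals of the gene table IAPEz-int was called higher, at 0.52 and an adjusted p of 0.00139 (quasi-likelihood test of edgeR). IAPEY3-int stood at 679 and 602 CPM in WT against 436 and 569 CPM in Pim3-/- ESCs, again without overlap (log2 fold change -0.35, adjusted p = 0.210). Its log2 fold change was -0.18 without Pim3-/- replicate 1 and -0.55 without Pim3-/- replicate 2. IAP-d-int, an internal region for which no LTR entry has the matching name, stood at 457 and 432 CPM in WT against 464 and 547 CPM in Pim3-/- ESCs. Its difference was small (log2 fold change 0.19, 95% interval -0.14 to 0.51, adjusted p = 0.435).

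The remaining internal regions gave no call on the TE scale. IAP1-MM_I-int had 213 and 211 counts in WT against 268 and 249 in Pim3-/- ESCs, with a log2 fold change of -0.32 (adjusted p = 0.253) and CPM that were lower in both Pim3-/- libraries. IAPEY4_I-int had 163, 146, 162 and 207 counts and overlapping CPM, with a log2 fold change of -0.36 (adjusted p = 0.298). IAPLTR3-int had 49, 64, 68 and 122 counts and a log2 fold change of 0.15 (adjusted p = 0.780), which turned to -0.30 without Pim3-/- replicate 2 and was called with the totals of the gene table (0.88, adjusted p = 0.00759). Over the 7 tested internal regions, 3 fold changes were above and 4 below 0, with a median of -0.20 on the log2 scale.

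Among the LTRs that are found with IAPEz copies, those named IAPLTR1 and IAPLTR2, the 2 Pim3-/- libraries did not always lie close together. With 1 library per clone, differences between clones and between libraries cannot be told apart. IAPLTR1_Mm stood at 759.7 and 637 CPM in WT against 722 and 401 CPM in Pim3-/- ESCs. The Pim3-/- libraries differed by 0.85 on the log2 scale, more than the difference between the groups (-0.31, adjusted p = 0.444, quasi-likelihood test of edgeR). That difference was -0.80 without Pim3-/- replicate 1 and 0.05 without Pim3-/- replicate 2. With the totals of the gene table IAPLTR1_Mm was called higher by the same test (0.40, adjusted p = 0.046). IAPLTR1a_Mm, by contrast, was higher in both clones, at 104 and 111 CPM in WT against 195 and 130.4 CPM in Pim3-/- ESCs. Its log2 fold change of 0.59 (95% interval 0.03 to 1.16) did not pass after adjustment (0.176). It passed with the scaling of the gene table (adjusted p = 0.00694, or 0.0742 with the prior weight of the TE table). The fold change was 0.27 without Pim3-/- replicate 1 and 0.85 without Pim3-/- replicate 2.

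The IAPLTR2 entries differed little between the groups. IAPLTR2_Mm stood at 446 and 449 CPM in WT against 474 and 468 CPM in Pim3-/- ESCs. The replicates of each group were nearly identical and the groups did not overlap, but the difference was only 1.05-fold (log2 fold change 0.07, 95% interval -0.22 to 0.37, adjusted p = 0.749). IAPLTR2b had 164, 190, 267 and 375 counts (log2 fold change 0.26, adjusted p = 0.395), IAPLTR2a2_Mm had 130, 171, 267 and 248 (0.19, adjusted p = 0.475) and IAPLTR2a had 112, 123, 168 and 173 (-0.06, adjusted p = 0.851). None of these changes passed the test on the TE scale. IAPLTR2b alone of the 4 was called with the scaling of the gene table (0.53, adjusted p = 0.0238, or 0.130 with the prior weight of the TE table).

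The less abundant LTRs had fold changes of either sign, and none was called on the TE scale with all libraries. IAP1-MM_LTR had 75 and 85 counts in WT against 153 and 136 in Pim3-/- ESCs (log2 fold change 0.26, adjusted p = 0.437), and IAPEY3_LTR had 29 and 33 against 63 and 61 (0.40, adjusted p = 0.371). Both had higher CPM in each Pim3-/- library and were called only with the totals of the gene table (0.97, adjusted p = 7.1e-04, and 1.12, adjusted p = 0.00447). IAPEY4_LTR had 71 and 94 counts in WT against 93 and 97 in Pim3-/- ESCs (-0.39, adjusted p = 0.254), IAPLTR4 had 45, 55, 56 and 55 (-0.44, adjusted p = 0.289) and IAPLTR3 had 42, 30, 27 and 37 (-0.79, adjusted p = 0.213). For these 3 the CPM of both Pim3-/- libraries lay below WT. IAPEY3C_LTR had 39 and 34 counts in WT but 67 and 22 in the Pim3-/- clones, which differed by 1.65 on the log2 scale. Its fold change of -0.31 was -1.36 without Pim3-/- replicate 1 and 0.30 without Pim3-/- replicate 2, so 1 library decided its direction. Over the 14 tested LTRs, 7 fold changes were above and 7 below 0, with a median of 0.01.

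Summed over all subfamilies, IAP counts were 4509 and 5309 in WT against 7085 and 7083 in Pim3-/- ESCs. They made up 0.825% and 0.780% of TE counts in WT against 0.863% and 0.876% in Pim3-/- ESCs (0.803 ± 0.032% and 0.870 ± 0.0093%, SD, n = 2 each). On these raw TE totals the groups did not overlap, yet the share was only 1.08-fold higher. The internal share overlapped between the groups, at 0.522% and 0.501% in WT against 0.509% and 0.538% in Pim3-/- ESCs. The LTR share was 0.303% and 0.278% in WT against 0.353% and 0.337% in Pim3-/- ESCs, 1.19-fold higher and without overlap. All these shares leave out the TMM factors, which were 0.93 and 0.94 in WT against 1.04 and 1.09 in Pim3-/- ESCs. On the TMM scale used for single subfamilies, the sums of all IAP counts and of LTR counts overlapped between the groups. The sum of internal counts did not overlap on that scale and was lower in both Pim3-/- libraries. Set against gene counts, IAP counts per 1000000 gene counts were 201 ± 8.56 in WT and 316 ± 8.51 in Pim3-/- ESCs, 1.57-fold higher, beside 1.45-fold for the sum of all TEs. With 2 libraries in each group, an exact two-sided permutation test of such sums cannot go below p = 0.333, and they are given here as values without a test.

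The ratio of LTR to internal counts is taken within a library and needs no scaling between libraries. It was 0.581 and 0.555 in WT against 0.693 and 0.626 in Pim3-/- ESCs. Both Pim3-/- ratios were above both WT ratios, by 0.21 on the log2 scale on average, with pairwise differences from 0.11 to 0.32 and SDs of 0.05 in WT and 0.10 in Pim3-/- ESCs. The shift amounted to 1.16-fold and is given as a value without a test. Leaving out IAPEz-int and all IAPLTR1 and IAPLTR2 entries gave 0.23, and counting IAPLTR4_I as internal gave 0.21.

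Not every IAP group took part in the shift of the ratio. IAPEz-int with the IAPLTR1 and IAPLTR2 entries gave ratios of 0.620 and 0.580 in WT against 0.711 and 0.682 in Pim3-/- ESCs, and IAP1-MM gave 0.352 and 0.403 against 0.571 and 0.546. IAPEY3 gave 0.0838 and 0.0855 against 0.169 and 0.122, the largest increase on the log2 scale (0.76), from 29 to 63 LTR counts per library. In all 3 groups both Pim3-/- libraries were above both WT libraries. IAPEY_LTR over IAPEy-int, in contrast, was 1.43 and 1.18 in WT against 1.58 and 1.39 in Pim3-/- ESCs, where the values overlapped. IAPEY4 also overlapped, at 0.436 and 0.644 against 0.574 and 0.469. IAPLTR3 went the other way, from 0.857 and 0.469 to 0.397 and 0.303, a log2 difference of -0.87 with WT replicates that themselves differed widely. The ratio of IAPEY5 could not be formed in WT replicate 1, where the internal count was 0. The median log2 ratio over the 6 groups in each library was -0.94 and -0.94 in WT against -0.80 and -0.98 in Pim3-/- ESCs. The Pim3-/- values lay on either side of WT, with a mean difference of 0.05. This is a difference of medians, not a median of the shifts of single groups. Those log2 shifts were 0.76 for IAPEY3, 0.57 for IAP1-MM, 0.22 for IAPEz-int with its LTRs and 0.19 for IAPEY. They were -0.03 for IAPEY4 and -0.87 for IAPLTR3.

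**Figure D3:**
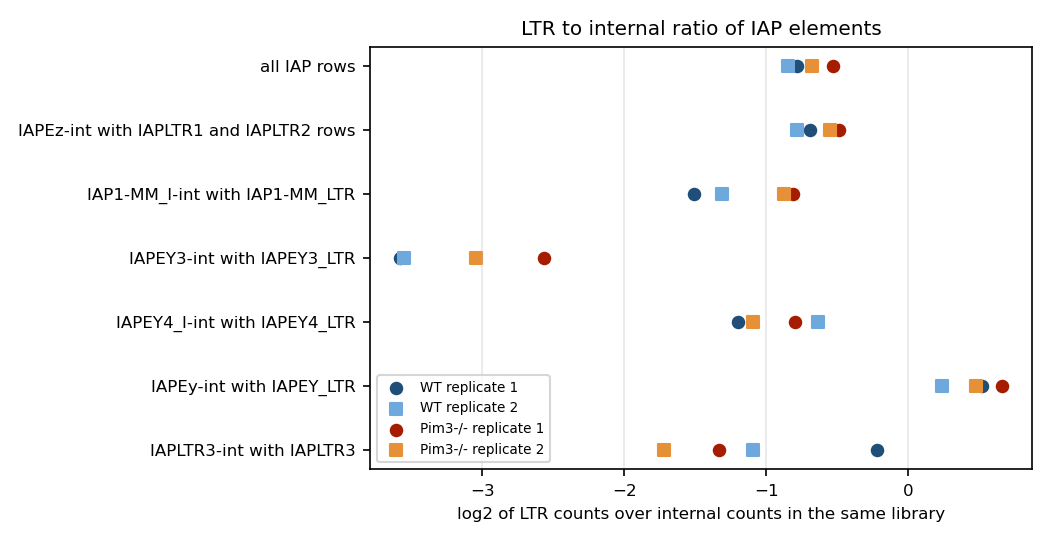
Log2 of LTR counts over internal counts in each library (horizontal axis) for all IAP subfamilies and for the 6 groups with matching names. Pim3-/- points (red and orange) lie to the right of both WT points (blue) for the sum, IAPEz, IAP1-MM and IAPEY3, overlap for IAPEY4 and IAPEy, and lie to the left for IAPLTR3.

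Some other endogenous retroviruses passed the test in the same libraries with larger fold changes than IAPEY_LTR. ETn/MusD elements, which like IAP belong to the ERVK class, include MMETn-int, with 18245 and 22545 counts in WT against 13100 and 10206 in Pim3-/- ESCs. It fell by 1.40 on the log2 scale (adjusted p = 2.3e-04, edgeR's quasi-likelihood test), and 3 of the 5 ETn/MusD subfamilies fell (60%, beside 5.31% of all TEs). IAP counts per ETn/MusD count were 0.153 and 0.152 in WT against 0.335 and 0.417 in Pim3-/- ESCs, a 2.45-fold difference within libraries. MuERVL, the ERVL element of 2-cell-like cells, rose in both its internal region MERVL-int (log2 fold change 1.89, adjusted p = 2.6e-04) and its LTR MT2_Mm (1.69, adjusted p = 0.00607). IAP counts per MuERVL count were 2.15 and 1.96 in WT against 0.457 and 0.733 in Pim3-/- ESCs. MMERVK10C is another ERVK family, and IAP counts per MMERVK10C count were 1.64 and 1.65 in WT against 1.63 and 2.00 in Pim3-/- ESCs, which overlapped. Within that family, MMERVK10C-int fell (-0.79, adjusted p = 0.0153) and so did the LTR RLTR10F (-0.72, adjusted p = 0.0498), by the same test. These were 2 of 11 subfamilies (18.2%), where 5.31% of all TEs were lower. Those 2 calls depended on the setting. Under the size factors of DESeq2 1 was lower (9.09%, beside 4.23% of all TEs), as was 1 without a filter (beside 3.22%). With genes and TEs in 1 joint scaling, 0 were lower and 1 was higher (9.09%, beside 6.85% of all TEs). With the totals of the gene table, 0 were lower and 7 higher (63.6%, beside 65.5% of all TEs). In both of these scalings the 2 lower calls were lost. Without either WT replicate, when 0 TEs passed in all, these calls were lost as well.

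**Figure D4:**
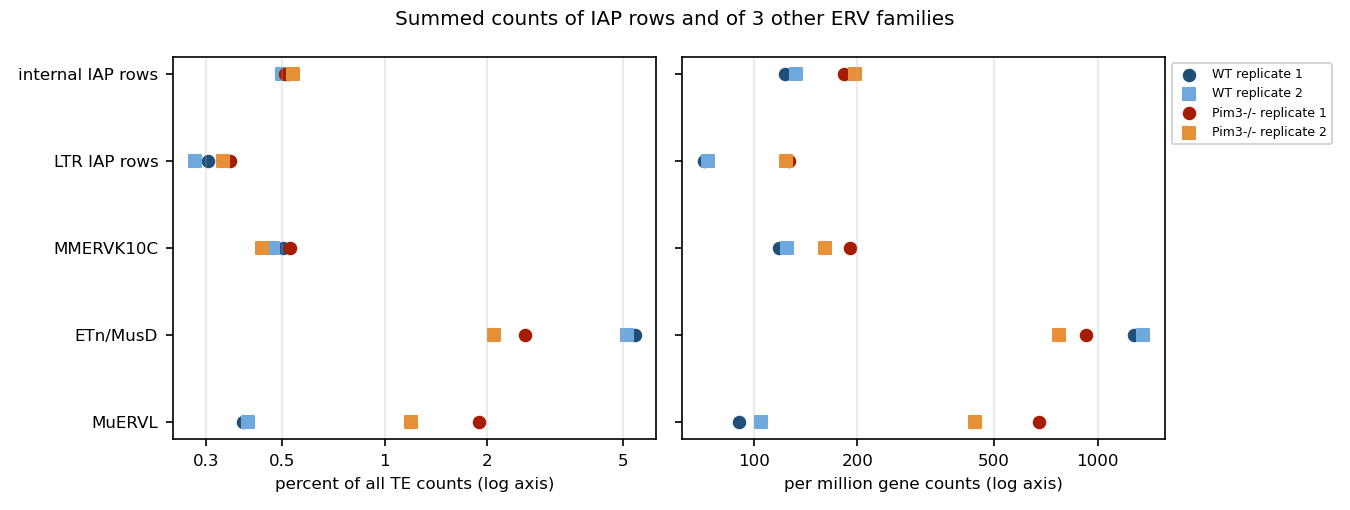
Summed counts of IAP internal regions, IAP LTRs and 3 other endogenous retrovirus families in each library, as a percentage of all TE counts (left) and per 1000000 gene counts (right), both on log axes. On the left, the IAP points of WT (blue) and Pim3-/- (red and orange) libraries lie close together, while ETn/MusD was lower and MuERVL higher in Pim3-/- ESCs.

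Genes known to act on IAP or other retroviral elements were listed together, without a split by the element they act on. With gene counts scaled by TMM factors, they were more often lower than higher in Pim3-/- ESCs. Of 42 listed genes, 4 were higher, 14 were lower and 24 did not pass (9.52% and 33.3% of the list), where 17.6% and 16.2% of all genes were higher and lower. Their median log2 fold change was -0.43, beside 0.07 for all tested genes. This depended on scaling and on the libraries. When library totals replaced the TMM factors, 6 were higher and 4 lower, and the median was 0.02 beside 0.52 for all genes, of which 35.8% were higher and 5.92% lower. Without WT replicate 1, 0 were higher and 1 lower (2.03% and 1.88% of all genes), and without WT replicate 2, 0 and 3 (2.95% and 5.35%). Without Pim3-/- replicate 1 the counts were 5 higher and 25 lower (28.3% and 27.5% of all genes), and without Pim3-/- replicate 2 they were 6 and 21 (25.5% and 25.3%).

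The 13 genes of the H3K9me3 pathway and its corepressors held 0 that rose and 6 that fell (Morc3, Smarcad1, Cbx1, Resf1, Cbx3 and Sumo2). With library totals 2 were higher (Setdb1 and Suv39h1) and 1 lower (Sumo2), and the other 5 lost the call, with adjusted p from 0.151 to 0.650. Trim28, the corepressor that KRAB zinc finger proteins bind, had 39564 and 46172 counts in WT against 39314 and 27938 in Pim3-/- ESCs, with a log2 fold change of -0.68 and an adjusted p of 0.0586. It was called lower without a filter on low counts (adjusted p = 0.0414), with the Wald test of DESeq2 (0.00631) and without either Pim3-/- replicate, but not with library totals (-0.23, adjusted p = 0.413) or with the replicate number as a block (0.116). Setdb1, the H3K9 methyltransferase, had 1902 and 2449 counts in WT against 2876 and 3405 in Pim3-/- ESCs, and its CPM overlapped (0.21, adjusted p = 0.391, with calls only for library totals, at 0.66 and an adjusted p of 0.0268, and without Pim3-/- replicate 1, at 0.33 and 0.0395). Sumo2, which encodes the modifier conjugated to TRIM28 and other repressors, had 9639 and 11055 against 6093 and 5142 counts and fell by 1.21 on the log2 scale (adjusted p = 0.00562).

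Of 7 histone chaperone and remodelling genes, 0 rose and 3 fell, namely Chaf1b of the CAF-1 chaperone, the remodeller Hells and the H3.3 gene H3f3a. With library totals H3f3a alone of the 7 was called. Among 5 genes of DNA methylation, the de novo methyltransferase Dnmt3b fell by 1.30 (2448 and 3559 counts in WT, 1781 and 1271 in Pim3-/- ESCs, adjusted p = 0.00636). Dnmt1, the maintenance methyltransferase, had 4364 and 5903 against 6573 and 5655 counts, and its CPM overlapped (log2 fold change -0.07, adjusted p = 0.790). Its partner Uhrf1 had 5620 and 7510 against 6876 and 6225 counts (-0.32, adjusted p = 0.196, and -0.39 with an adjusted p of 0.0258 without Pim3-/- replicate 1). With library totals the fold changes of Dnmt1 and Uhrf1 turned to 0.38 and 0.12.

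Genes that act through RNA went both ways. Of 6 genes of the m6A RNA modification, 2 rose and 2 fell. Ythdc1, a nuclear reader of m6A that takes part in the silencing of retrotransposons in ESCs, had 525 and 673 counts in WT against 1201 and 1470 in Pim3-/- ESCs and rose by 0.84 on the log2 scale (adjusted p = 0.0138). Zc3h13 rose by 0.54, Mettl3 and Wtap fell by 0.60 and 0.74, and Mettl14 differed little, at -0.01. Zc3h13 lost the call without a filter (adjusted p = 0.0791) and with the Wald test of DESeq2 (0.0912), and Mettl3 and Wtap lost it with library totals (-0.15, adjusted p = 0.493, and -0.29, adjusted p = 0.213). Among 5 restriction factors, Zc3hav1, which encodes the antiviral RNA-binding protein ZAP, had 329 and 454 against 826 and 1095 counts and rose by 0.98 (adjusted p = 0.0132), and the RNA helicase gene Mov10 fell by 0.91 (-0.46 with library totals, adjusted p = 0.134). Of 6 KRAB zinc finger genes, Zfp809 rose by 0.97 from 80 and 91 to 209 and 213 counts (adjusted p = 0.0247), and Zfp932 fell by 1.30 from 189 and 182 to 95 and 96 counts (adjusted p = 0.0116). The other 4, Zfp429, Zfp989, Zfp987 and Gm15446, did not pass. Zc3hav1, Zfp809, Ythdc1 and Zfp932 each lost the call without either WT replicate, and Sumo2 lost it without WT replicate 1, where its adjusted p was 0.0563. Their log2 fold changes without WT replicates 1 and 2 were 0.82 and 1.02 for Zc3hav1, 0.95 and 0.86 for Zfp809, 0.73 and 0.82 for Ythdc1, -1.19 and -1.52 for Zfp932 and -1.24 and -1.32 for Sumo2.

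**Figure D5:**
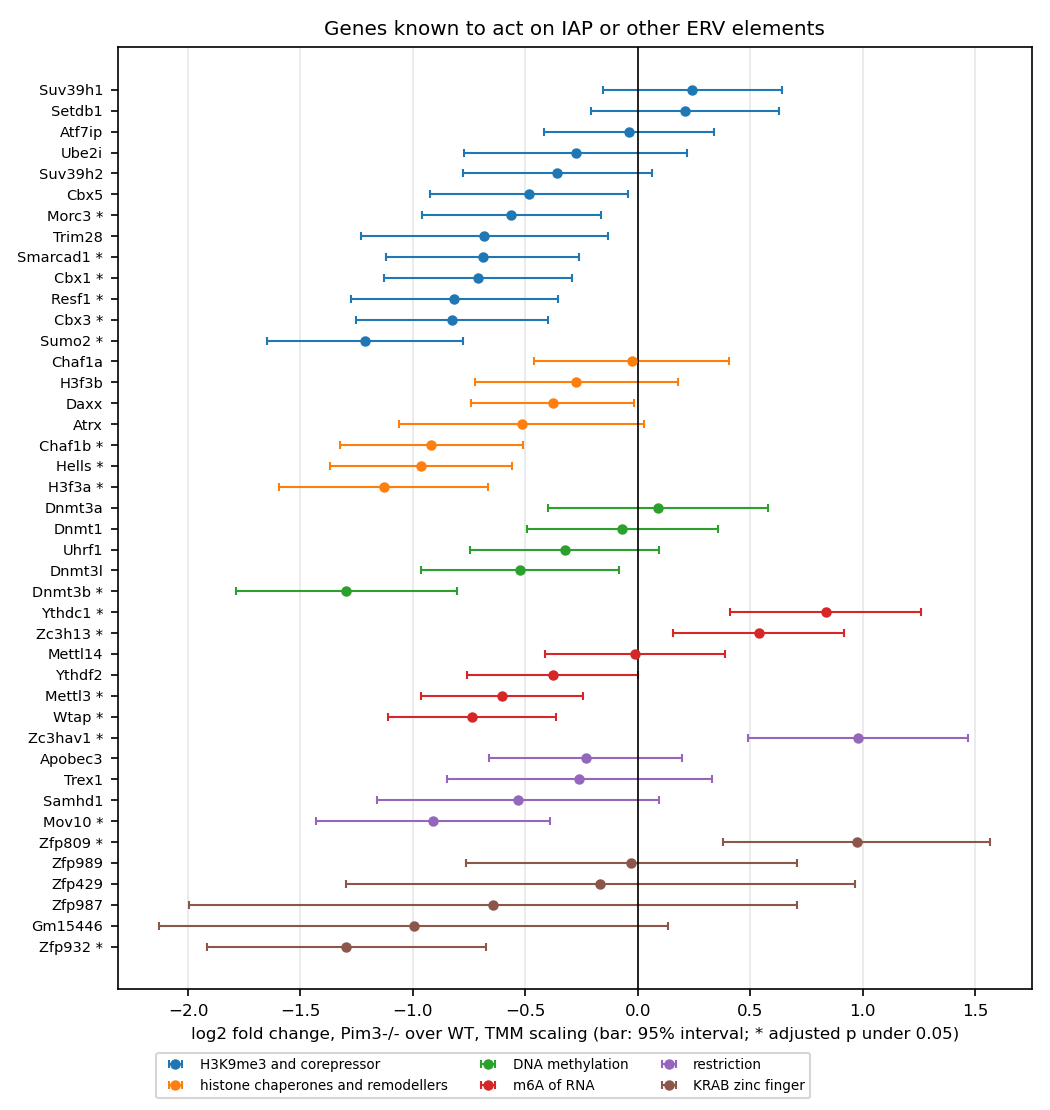
Log2 fold change, Pim3-/- over WT, of 42 genes known to act on IAP or other retroviral elements (horizontal axis, TMM scaling of the gene table), with 95% intervals, coloured by the group of genes, and with a star at an adjusted p under 0.05. Most points lie left of 0, with 4 stars to the right (Ythdc1, Zc3h13, Zc3hav1 and Zfp809) and 14 to the left.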

How the data were processed

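RNA-seq counts of 2 WT and 2 Pim3-/- libraries were used as the authors deposited them, as raw counts for genes and for TE subfamilies, and reads were not processed again. The paper's methods name Cutadapt, Hisat2 and mm10 with Ensembl genes and RepeatMasker TEs, whereas the submitters' processing notes list Trim Galore, STAR, featureCounts and GRCm38. The paper also names SQuIRE for a plot of TEs, and whether the deposited TE counts came from it is not stated. How reads that map to several copies or to either strand were counted in the deposited table is not given in the sources used here, and it bears on IAP counts, since IAP copies are similar in sequence. Overlap of LTR and internal reads with host transcripts was not resolved.

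With edgeR 4.0.16, 828 of 1072 TEs and 18444 of 55418 genes passed the filter on low counts (filterByExpr, with at least 10 counts by its rule and 15 in total). Counts were scaled by TMM factors within each table and compared by the quasi-likelihood test of edgeR, adjusted by Benjamini-Hochberg over all TEs or genes tested, with a threshold of 0.05. CPM are scaled counts per 1000000 counts of the same table. Alternatives used other scalings, filters, the Wald test of DESeq2 1.42.0, a replicate block and each library left out, in R 4.3.3. Plots come from matplotlib 3.10.9 under Python 3.11.15. On simulated TE counts, 47 of 60 changes of 1 on the log2 scale were recovered (78.3%), with 6% false calls among all calls, and 60 of 60 changes of 2. The simulation gave all TEs the same fixed spread and changed only TEs above a minimum mean count. It held no shift in composition between the groups. These rates therefore do not give the power for the IAP subfamilies in these libraries.

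IAP members and gene lists were chosen with earlier results of these data known. Every IAP entry is named. Values in each library are given for IAP entries that were called, for the 5 with the most counts and for those in matching LTR and internal groups. Of the regulators, Trim28, Setdb1, Dnmt1, Uhrf1 and the 3 largest called changes in each direction are given in full, and names outside this rule were chosen after their values were seen. Gm13051 on the gene list was matched to Zfp987 through RefSeq synonyms. The replicates were distinct libraries, since TE counts of the WT replicates differed beyond sampling noise (chi-square p = 2.8e-218), as did those of Pim3-/- replicates. Which clone is replicate 1 is not given in the sources used here. P-values measure the spread between these libraries only. IAP consensus sequences were not used here.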

Additional observations from a re-analysis of the deposited data

How the results depend on the processing

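The sign of some IAP fold changes depended on scaling, and the calls rested on 2 libraries per group. Causes of the changes below were not tested. Scaling with gene table totals, the gene scaling with the prior weight of the TE table and the ratio without IAPEz entries were chosen after seeing the data.

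The median log2 fold change of all IAP subfamilies was 0.12 with TE table totals, 0.19 with genes and TEs in a joint table and 0.21 with gene scaling (with either prior weight). It was 0.66 with gene totals, 0.072 without a filter and 0.085 with the Wald test of DESeq2. For internal regions it was 0.055 in the joint table, 0.069 with gene scaling, 0.52 with gene totals, 0.15 without a filter and 0.13 with the Wald test. For LTRs it was 0.19, 0.26, 0.27 and 0.72 with TE totals, joint table, gene scaling and gene totals. Without a filter and with the Wald test the medians cover 25 subfamilies, 9 of them internal, against 21 and 7 with the filter. Each of those 7 internal regions kept its sign there, with IAPEz-int at -0.20 and -0.22. Subfamilies called higher numbered 2, 5 and 14 with TE totals, gene scaling and gene totals. These were 9.52%, 23.8% and 66.7% of those tested, beside 8.45%, 21% and 65.5% of all TEs. Against gene counts, the log2 fold of the summed share was 0.65 for all, 0.57 for internal and 0.78 for LTR counts. The log2 difference in the LTR to internal ratio was 0.048 when the median of the group ratios was first taken in each library. With library totals 4 regulators were lower, and Dnmt1 (0.38) and Uhrf1 (0.12) changed sign.

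IAPEz-int changed sign in the joint table (0.055), with gene scaling (0.069) and with gene totals (0.52). IAPLTR2a did so with TE totals (0.12), joint table (0.19), gene scaling (0.21) and gene totals (0.66), and IAPEY2_LTR likewise (0.079, 0.15, 0.16 and 0.62). Gene totals alone turned IAP1-MM_I-int (0.40), IAPEY4_I-int (0.37), IAPEY3-int (0.38), IAPLTR4 (0.27), IAPLTR1_Mm (0.40), IAPEY3C_LTR (0.39) and IAPEY4_LTR (0.33).

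With each library left out in turn, which assumes that the lone library of a group varies like the other group, 0 to 2 IAP subfamilies were called higher and 0 to 3 lower, and 0 to 6 regulators higher and 1 to 25 lower. Medians ranged from 0.021 to 0.068 for all subfamilies, -0.24 to 0.058 for internal regions and 0.042 to 0.085 for LTRs. The filter then kept 21 to 23 subfamilies, 7 or 8 of them internal and 14 or 15 LTRs, so these medians do not all cover the same entries. IAPLTR3-int ranged from -0.30 to 0.49, IAPLTR2a from -0.17 to 0.052, IAPEY2_LTR from -0.27 to 0.027, IAPLTR1_Mm from -0.80 to 0.052 and IAPEY3C_LTR from -1.36 to 0.30. With the replicate number as a block, 1 IAP subfamily was higher and 0 lower, as without the block, and 14 regulators were lower, while calls among all TEs went from 28 higher and 44 lower to 45 and 63. The deviations of same-numbered libraries correlated at 0.022 over TEs, so the numbers were not taken to pair the libraries.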
